A study of Mus musculus with 7 samples.

Results

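*Npas4*, *Arc*, the 4 *Egr* genes (*Egr1*, *Egr2*, *Egr3* and *Egr4*), the 3 *Nr4a* genes (*Nr4a1*, *Nr4a2* and *Nr4a3*) and *Ier2* are genes whose transcription follows neuronal activity within minutes. These 10 genes were chosen by symbol from the 47729 genes in the expression table of forebrain from mice that lack the transcription factor *Lhx6*. Control mice were *Lhx6*+/- and mutant mice were *Lhx6*-/-, so that the controls also carried 1 null copy (allele Lhx6tm2Vpa). All mice were on the F1(C57BL/6 X 129Sv) background and were taken at postnatal day 15 with no treatment named in the sample labels. The data comprised 4 control and 3 mutant libraries, each from a pool of 2 mice, and the sexes recorded for the pools could not be tied to the columns of the table. Libraries are named here by genotype and by the library number in the table.

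LHX6 is required for the specification and migration of cortical interneurons born in the medial ganglionic eminence, the embryonic source of parvalbumin- and somatostatin-expressing cells. When a neuron is depolarised, calcium entry and MAP kinase signalling phosphorylate factors that already sit on DNA, CREB at cAMP response elements and SRF with its ELK partners at CArG boxes, and the immediate early genes are transcribed without new protein synthesis. *Npas4* responds selectively to calcium influx in neurons, whereas *Egr1*, *Nr4a1* and *Ier2* also respond to growth factors and stress in many cell types. Their products, mostly transcription factors, then act on later genes such as *Bdnf*.

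The targeted gene *Lhx6* had between 475.9 and 615.2 normalised counts (counts scaled to a common library size) in controls and between 70.07 and 76.59 in mutants, a log2 fold change of -2.88 (edgeR quasi-likelihood test, adjusted p = 5.99e-05). Libraries summed to between 32556304 and 38069151 expected counts. Of 19684 genes that passed the filter on low counts (at least 10 counts in at least 3 libraries), 954 or 4.85% were called different at an adjusted p of 0.05 or less, 585 of them (2.97%) higher and 369 (1.87%) lower in mutants. In bulk forebrain, fewer cells of a type and less RNA per cell cannot be told apart. Among the mutants, library 12 had the highest value for 9 of the 10 genes and library 13 the lowest for 9.

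All 10 genes passed the filter, and 1 of them, *Npas4*, was called different between the genotypes. *Npas4* was higher in mutants, 3.83-fold, and none of the other 9 was called in either direction. Against a background of 2.97% of genes called higher and 1.87% called lower, 1 and 0 of 10 are small counts, and they were read gene by gene. The log2 fold change was positive for 3 of the 10 genes and negative for 7, with a median of -0.11, beside 47.8% positive and a median of -0.013 over all genes tested. The upper 95% limits of the fold change for the 9 other genes were at most 1.62, below the lower limit of 2.29 for *Npas4*.

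**Figure D1:**
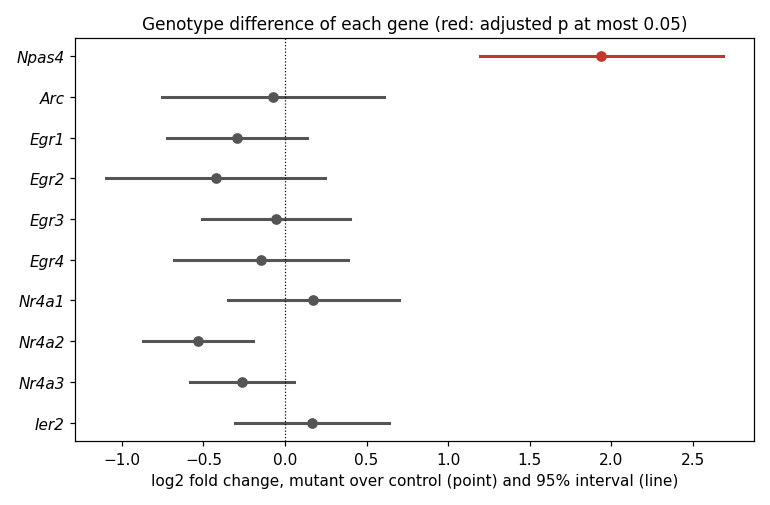
Log2 fold change, mutant over control, of the 10 genes on the horizontal axis, with points for the estimates of edgeR's quasi-likelihood fit and bars for their 95% intervals. The interval of *Npas4*, from 1.19 to 2.68, lies to the right of all the others, and *Nr4a2* has the only other interval that does not include 0.

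*Npas4* encodes a neuron-restricted bHLH-PAS transcription factor that adjusts inhibitory and excitatory synapses after activity. The gene (ENSMUSG00000045903) lies on the reverse strand of chromosome 19, from 4984355 to 4989971 of GRCm38. Normalised counts of *Npas4*, listed here and in what follows in the order of control libraries 2, 3, 10, 11 and mutant libraries 5, 12, 13, were 560.4, 290.2, 599.6 and 490.9 in the controls. They were 1537, 2872 and 1175 in the mutants. Every mutant library was above every control library, and *Npas4* was the only one of the 10 genes whose genotypes did not overlap, against 19.7% of all tested genes in either direction and 10.7% in this one. Means were 485.3 ± 138 in controls (SD, n = 4) and 1862 ± 894 in mutants (SD, n = 3), and the log2 fold change was 1.94 with a standard error of 0.327 (edgeR quasi-likelihood test, adjusted p = 0.0130). The spread between mutant pools was wide, with a coefficient of variation of 48.0% against 28.4% in controls. Without mutant library 12, the highest, the log2 fold change was 1.48 and the call held (edgeR, adjusted p = 0.0387). Among the low library numbers (2, 3 and 5) the difference of mean log2 counts was 1.93, and among the high ones (10 to 13) it was 1.76. By the size of the fold change *Npas4* ranked 110th of the 19684 genes, and by p-value 389th.

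**Figure D2:**
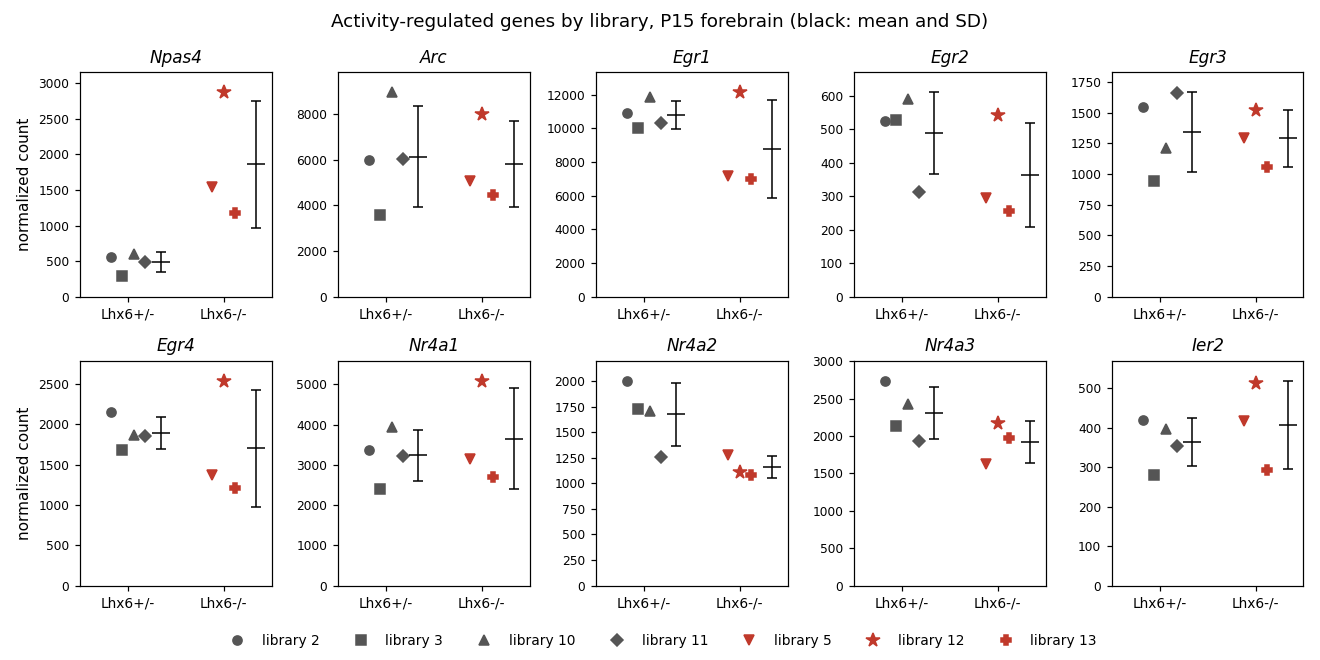
Normalised counts (vertical axes, each starting at 0) of the 10 genes, 1 panel a gene, with a point for each of the 4 control and 3 mutant libraries and black marks beside them for the mean and SD of each genotype. The genotypes separate completely in the panel of *Npas4* alone, where mutants lie between 1175 and 2872 and controls between 290.2 and 599.6.

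Sequence upstream of the transcription start is shown for *Npas4*, the gene that differed, and for *Egr4*, *Nr4a1* and *Nr4a2*, which were not called, to compare the CREB-type elements the 4 genes carry. Promoter windows of RefSeq (GRCm38.p6, from 250 bases before the start to 50 after it) were found for 6 of the 10 genes (not for *Arc*, *Egr1*, *Egr3* and *Ier2*), in 10 windows, since *Egr2* has several starts. Each line gives the 250 bases before the start on the strand of the gene, and capitals mark TGACG, the core of the cAMP response element, or its reverse complement CGTCA. The windows are chr19:4989972-4990221 on the reverse strand for *Npas4*, chr6:85513590-85513839 on the reverse strand for *Egr4*, chr15:101266596-101266845 on the forward strand for *Nr4a1* and chr2:57124004-57124253 on the reverse strand for *Nr4a2*.
Npas4: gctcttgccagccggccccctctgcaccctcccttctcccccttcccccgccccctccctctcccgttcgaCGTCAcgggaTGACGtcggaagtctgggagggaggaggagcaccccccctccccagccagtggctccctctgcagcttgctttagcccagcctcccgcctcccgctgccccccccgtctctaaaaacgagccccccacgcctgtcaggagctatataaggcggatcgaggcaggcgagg
Egr4: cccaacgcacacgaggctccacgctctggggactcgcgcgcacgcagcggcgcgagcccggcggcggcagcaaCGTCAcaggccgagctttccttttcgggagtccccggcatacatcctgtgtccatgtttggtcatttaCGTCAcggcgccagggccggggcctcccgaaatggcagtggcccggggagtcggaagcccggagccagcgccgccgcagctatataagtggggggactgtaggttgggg
Nr4a1: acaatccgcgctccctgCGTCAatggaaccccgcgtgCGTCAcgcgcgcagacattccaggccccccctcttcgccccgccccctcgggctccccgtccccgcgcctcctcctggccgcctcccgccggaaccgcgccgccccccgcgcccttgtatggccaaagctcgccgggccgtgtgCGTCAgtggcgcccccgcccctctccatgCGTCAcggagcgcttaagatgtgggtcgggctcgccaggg
Nr4a2: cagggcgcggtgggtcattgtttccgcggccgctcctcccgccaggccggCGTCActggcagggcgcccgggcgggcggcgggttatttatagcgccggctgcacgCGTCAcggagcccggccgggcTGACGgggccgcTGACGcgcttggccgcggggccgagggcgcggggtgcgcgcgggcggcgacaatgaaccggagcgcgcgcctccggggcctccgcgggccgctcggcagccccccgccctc

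In these stretches the core occurred 2 times for *Npas4* and for *Egr4* and 4 times for *Nr4a1* and for *Nr4a2*, counting both strands. The core was in 6 of the 6 genes with a window and in 8 of their 10 windows, against 20.8% of all 32817 windows of the same length. The full element TGACGTCA was in none of the 10 windows, and in 1.79% of all windows. The 10-base CArG box, bound by SRF, was found for *Egr2* alone, in 4 of its windows, against 1.63% of all windows. The EGR motif GCGNGGGCG was found for *Nr4a1* and *Nr4a2*, against 5.56% of all windows, and the NBRE of the NR4A receptors, AAAGGTCA, for none of the 6 (1.51% of all windows). The E-box core TCGTG of NPAS4 was found for *Egr4* alone (16.0% of all windows). A match is a run of letters and not a bound site.

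*Arc* encodes a protein of the postsynaptic density that takes part in the endocytosis of AMPA receptors, and its mRNA travels to active synapses. The gene lies on chromosome 15, from 74669083 to 74672570. Normalised counts of *Arc* were 5977, 3572, 8946 and 6026 in the controls and 5051, 7979 and 4437 in the mutants. The highest and the lowest values were both from controls, so that the genotypes overlapped completely. Means were 6130 ± 2200 in controls (SD, n = 4) and 5822 ± 1890 in mutants (SD, n = 3), and the log2 fold change was -0.07 with a 95% interval from -0.76 to 0.61 (edgeR quasi-likelihood test, adjusted p = 0.937). On the linear scale the interval ran from 0.592 to 1.52. The estimate turned positive, to 0.17 on the log2 scale, without control library 10, to 0.031 without mutant library 5 and to 0.089 without mutant library 13. Without mutant library 12 it was -0.37 (edgeR, adjusted p = 0.700).

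The *Egr* genes encode zinc finger transcription factors that share a GC-rich binding motif. *Egr1*, also known as zif268, is the family member whose brain expression is most used as a sign of recent activity, and *Egr2*, also known as Krox20, is also needed for myelination by Schwann cells. *Egr3* and *Egr4* are further activity-induced members. All 4 estimates were negative and none was called, as the following values show.

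*Egr1* (chromosome 18, 34859823 to 34864984) had 10940, 10020, 11870 and 10340 normalised counts in controls. It had 7204, 12150 and 7018 in mutants. Mutant libraries 5 and 13 were below every control, and mutant library 12 was above every control. The log2 fold change was -0.30 with a 95% interval from -0.73 to 0.13 (edgeR quasi-likelihood test, adjusted p = 0.482). Without mutant library 12 it was -0.60 and was called (edgeR, adjusted p = 0.0394), whereas without any of the 6 other libraries it was not called.

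*Egr2* (chromosome 10, 67535475 to 67542188) had 524.2, 528.2, 591.0 and 312.0 normalised counts in controls and 296.0, 542.3 and 255.7 in mutants. Here control library 11 was close to the lower mutants, and mutant library 12 among the high controls. Its log2 fold change was -0.42, with a 95% interval from -1.10 to 0.25 (edgeR quasi-likelihood test, adjusted p = 0.528). It was -0.82 without mutant library 12 (edgeR, adjusted p = 0.182), and without mutant library 13 it was -0.22 (adjusted p = 0.871).

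*Egr3* (chromosome 14, 70077445 to 70080157) had 1545, 946.0, 1210 and 1661 normalised counts in controls and 1294, 1520 and 1058 in mutants. All mutants lay within the range of the controls. Its log2 fold change was -0.054, with a 95% interval from -0.51 to 0.40 (edgeR quasi-likelihood test, adjusted p = 0.929). It was -0.19 without mutant library 12, and without mutant library 13 it was 0.072.

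*Egr4* (chromosome 6, 85511121 to 85513589) had 2153, 1680, 1865 and 1857 normalised counts in controls and 1365, 2536 and 1210 in mutants. As for *Egr1*, mutant libraries 5 and 13 were below all controls and library 12 was above them. The estimate on the log2 scale was -0.15, with a 95% interval from -0.68 to 0.38 (edgeR quasi-likelihood test, adjusted p = 0.817). Without mutant library 12 it was -0.55 (edgeR, adjusted p = 0.0724), and without mutant library 13 it was 0.048 (adjusted p = 0.968). *Egr1* and *Egr4* had the most similar profiles of any pair of the 10 genes, with a root mean square difference of 0.131 on the log2 scale after centring each gene over the 7 libraries.

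The *Nr4a* genes encode orphan nuclear receptors, also known as Nur77 (*Nr4a1*), Nurr1 (*Nr4a2*) and Nor1 (*Nr4a3*), which act without a known activating ligand and are controlled through their own transcription. *Nr4a2* is in addition needed for midbrain dopamine neurons and is expressed in deep neocortex and claustrum. None of the 3 was called, and *Nr4a2* came nearest to the threshold.

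*Nr4a1* (chromosome 15, 101266846 to 101274792) had 3372, 2390, 3946 and 3219 normalised counts in controls and 3153, 5080 and 2706 in mutants. Mutant library 12 was the highest of all 7, and the other mutants lay among the controls. The log2 fold change was 0.17, with a 95% interval from -0.35 to 0.70 (edgeR quasi-likelihood test, adjusted p = 0.775). Without mutant library 12 it was -0.14.

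*Nr4a2* (chromosome 2, 57106830 to 57124003) had 1999, 1729, 1709 and 1254 normalised counts in controls and 1277, 1113 and 1080 in mutants. Control library 11 was just below mutant library 5, and otherwise the mutants were below the controls. Means were 1673 ± 309 (SD, n = 4) and 1156 ± 106 (SD, n = 3). The log2 fold change was -0.53, with a standard error of 0.149 and a 95% interval from -0.87 to -0.19, and it did not pass after adjustment over all genes (edgeR quasi-likelihood test, adjusted p = 0.0863). It was called lower with DESeq2 (adjusted p = 0.0137) and, in edgeR, with a covariate for the low and high library numbers (adjusted p = 0.0283) and without control library 11 (-0.65, adjusted p = 0.0212). Over all alternatives the adjusted p of *Nr4a2* ran from 0.0137 to 0.305. *Nr4a2* lies on the same chromosome as *Lhx6*, 21 Mb away.

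*Nr4a3* (chromosome 4, 48045153 to 48086447) had 2734, 2138, 2421 and 1935 normalised counts in controls and 1619, 2177 and 1971 in mutants. Mutant library 5 was the lowest of all, and the other mutants lay among the controls. Mutant over control, the log2 ratio was -0.26, with a 95% interval from -0.58 to 0.056 (edgeR quasi-likelihood test, adjusted p = 0.380). Among the low library numbers the difference was -0.58, and among the high ones it was -0.064.

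*Ier2* encodes a small nuclear protein induced by growth factors and depolarisation alike. The gene (chromosome 8, 84661331 to 84662852) had 417.8, 280.2, 397.2 and 353.7 normalised counts in controls and 415.7, 512.3 and 291.7 in mutants. Mutant library 12 was above all controls, and the others were within their range. Its log2 fold change was 0.17, with a 95% interval from -0.30 to 0.64 (edgeR quasi-likelihood test, adjusted p = 0.760), and it was -0.033 without mutant library 12.

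The levels of the 10 genes were compared in RPKM, counts per kilobase of exon and scaled to library size. *Egr1* was the highest in controls, at 67.5 ± 5.09 RPKM (SD, n = 4), followed by *Arc* at 56.2 ± 20.2 and *Nr4a1* at 36.6 ± 7.28. *Egr3* (26.5 RPKM) and *Egr4* (24.7 RPKM) came next, then *Nr4a2* (11.6), *Nr4a3* (10.8), *Ier2* (6.67), *Npas4* (4.15) and *Egr2* (4.03). Ranges over the 4 controls overlapped between all neighbours in this order except *Egr4* and *Nr4a2*, *Nr4a3* and *Ier2*, and *Ier2* and *Npas4*. The highest, *Egr1*, was at the 96.5th percentile of the level of tested genes, and *Npas4* at the 54.4th. In mutants the mean of *Npas4* was 15.9 ± 7.65 RPKM (SD, n = 3), and *Npas4* stood 6th of the 10 rather than 9th. The order of *Egr1*, *Arc* and *Nr4a1* was the same in mutants, at 55.0, 53.4 and 41.3 RPKM. The deposited gene models of *Npas4*, *Egr3* and *Nr4a1*, with 3277, 1416 and 2474 bases, are shorter than in a later GRCm38 annotation, with 4136, 4406 and 3509, so that the RPKM and the places of these genes depend on the annotation. With the later lengths, an alternative chosen after seeing the data, *Npas4* had 3.29 RPKM in controls and 12.6 in mutants and stood 10th and 5th. *Egr3* then had 8.53 RPKM in controls, 7th in place of 4th, while *Nr4a1*, at 25.8, stayed 3rd.

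To ask whether *Npas4* differed from the other genes within the same libraries, the log2 ratio of its normalised count to that of each other gene was taken per library. The ratio of *Npas4* to *Egr1* was -4.29, -5.11, -4.31 and -4.40 in controls and -2.23, -2.08 and -2.58 in mutants. The ratio of *Npas4* to *Nr4a1* was -2.59, -3.04, -2.72 and -2.71 in controls and -1.04, -0.82 and -1.2 in mutants. In both, the mutants lay closer to each other than to any control. The spread of the ratio over the mutants differed between genes, from an SD of 0.111 for *Egr2* to 0.576 for *Nr4a3* and 0.681 for *Nr4a2*. For all 9 genes the ratio was higher in every mutant than in every control, by between 1.74 (*Ier2*) and 2.40 (*Nr4a2*) on the log2 scale. Each of the 9 had a two-sided exact permutation p of 0.0571, which is the smallest that 35 arrangements of 4 and 3 libraries can give, and the same value after adjustment over the 9. The 9 ratios share the *Npas4* counts and are not independent of each other. *Npas4* already separated the genotypes and the other 9 genes did not, so higher ratios in mutants were largely set in advance. The ratios are therefore not evidence beyond the *Npas4* counts themselves. *Npas4* made up between 1.23% and 1.85% of the summed counts of the 10 genes in controls, and 6.62%, 7.87% and 5.54% in mutant libraries 5, 12 and 13.

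**Figure D3:**
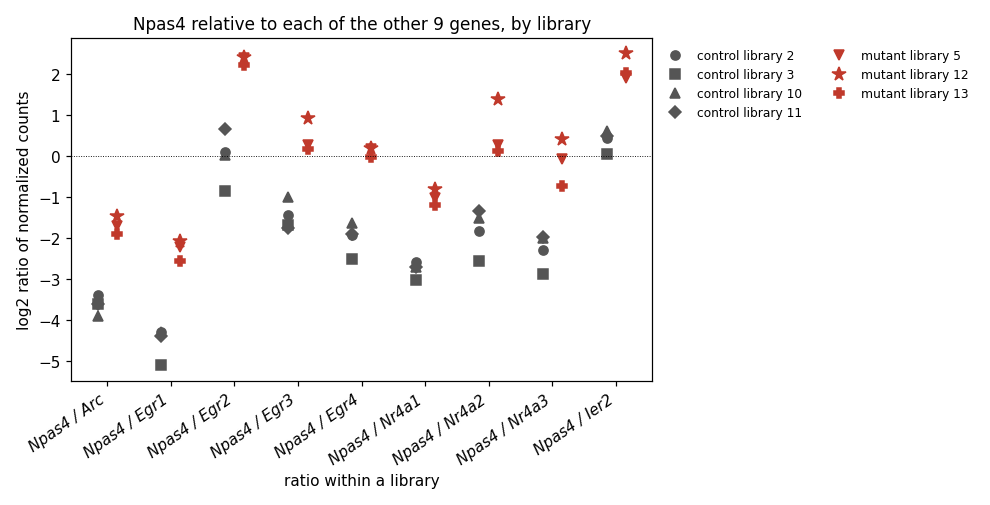
Log2 ratio of the normalised count of *Npas4* to that of each of the 9 other genes (vertical axis), with grey points for the control and red points for the mutant libraries. The 3 mutants lie above the 4 controls for every gene, with differences of means between 1.74 and 2.40.

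The mutant libraries were ordered alike by most of the 10 genes, and the control libraries less so. In the mutants, library 12 was highest for all but *Nr4a2*, for which library 5 was, and library 13 was lowest for all but *Nr4a3*. Over all tested genes library 12 was the highest mutant for 32.1% and library 13 the lowest for 29.1%. Among 25 other rapid response genes, described below, the shares were 56% and 72%, so the order was not particular to the 10 genes. The 10 genes together had 23213, 36485 and 21202 normalised counts in the mutants and 30228, 23576, 33554 and 27444 in the controls. Control library 3 was the lowest control for 7 of the 10 genes, against 33% of all tested genes and 48% of the other rapid response genes. The highest control was library 10 for 5 genes, library 2 for 4 and library 11 for 1. Summed counts of the *Egr* genes were 10160, 16753 and 9542 in the mutants, and those of the *Nr4a* genes 6049, 8369 and 5757. *Npas4* followed this order within the mutants too, and differed from the others in that all 3 mutants were above the controls. Mutant library 12 also had the highest summed counts of striatal projection neuron markers, 35062, against 24139 and 30888 in mutant libraries 5 and 13, and its part in the order was not tested.

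**Figure D4:**
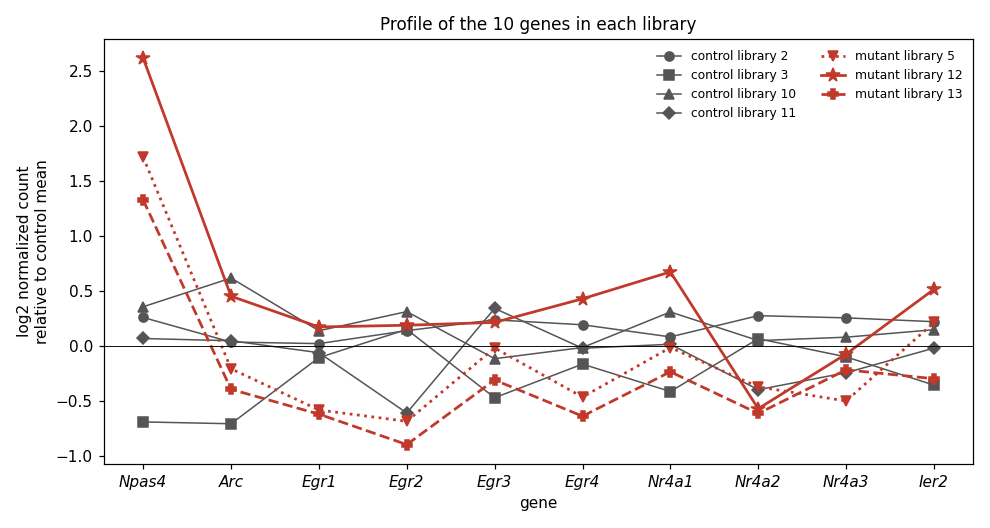
Normalised counts of the 10 genes in each library relative to the mean of the 4 controls (log2 scale, vertical axis), with a line for each library, grey for controls and red for mutants. Among the mutants, library 12 is above the others for all genes but *Nr4a2*, and all 3 mutants are above the controls at *Npas4* alone.

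Other genes of the activity response were taken from lists of textbook members, which were drawn up with results of these libraries known. Of 25 other rapid response genes, 5 were called higher and none lower, with a median log2 fold change of 0.43, and 23 of the 25 estimates were positive. For comparison with this list and those that follow, 2.97% of all tested genes were called higher and 1.87% lower. Of all estimates 47.8% were positive, with a median of -0.013. The bZIP factor *Atf3* rose from 21.2 ± 8.83 normalised counts (SD, n = 4) to 74.6 ± 19.2 (SD, n = 3), a log2 fold change of 1.82 (edgeR, adjusted p = 0.0171). *Fosb*, an AP-1 subunit, rose by 1.02 (edgeR, adjusted p = 0.0331), and *Cyr61*, a secreted matrix protein, by 1.08 (adjusted p = 0.0281). *Csrnp1* rose by 0.87, and *Dusp6*, a phosphatase of ERK, by 0.60. *Fos* itself had a log2 fold change of 0.44 (edgeR, adjusted p = 0.409), and *Junb* had -0.36 (adjusted p = 0.487). The number called was 1 without control library 11 or without mutant library 12, 11 with DESeq2 and 14 with a covariate for the low and high library numbers.

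Of 15 delayed response genes, which encode secreted peptides, growth factors and other effectors, 12 were called higher and none was lower. The median log2 fold change was 1.25, beside -0.013 over all tested genes, of which 2.97% were called higher. *Adcyap1*, which encodes the neuropeptide PACAP, rose from 577.6 ± 80.7 normalised counts (SD, n = 4) to 6218 ± 664 (SD, n = 3), a log2 fold change of 3.43 (edgeR, adjusted p = 2.33e-05). *Bdnf*, a neurotrophin and a known target of NPAS4 and CREB, rose from 920.7 ± 111 to 4006 ± 137 (2.12). *Nptx2*, a secreted pentraxin that gathers AMPA receptors, rose by 2.28, and *Ptgs2*, the inducible cyclooxygenase, by 2.26. *Scg2* and *Vgf*, granins of dense core vesicles, rose by 1.76 and 1.35. *Nrn1*, *Plk2* and *Homer1* had values of 0.00, 0.13 and 0.08 and were not called. For *Bdnf* the mutant libraries 5, 12 and 13 had 4084, 3848 and 4087 normalised counts, which lie close together. Library 12, the highest mutant for *Npas4*, was the lowest for *Bdnf*. Over the 15 delayed response genes, library 12 was the highest mutant for 7 and the lowest for 3. The number of delayed response genes called higher was between 9 and 12 in all alternatives.

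Of 16 factors that act upstream of the 10 genes (CREB and its coactivators, SRF and its partners, MAP kinases, calcium-dependent kinases), *Elk3* was called higher, by 0.43 on the log2 scale (edgeR, adjusted p = 0.0473), and none was lower. This call was lost on leaving out any of the 7 libraries. DESeq2 also called 2 of the 16 lower, *Mapk3* (-0.42, adjusted p = 0.0215) and *Camk4* (-0.24, adjusted p = 0.0366). The covariate for library numbers called the same 2 lower. *Crtc1* was called lower with libraries 10 to 13 only and without control library 3. The median was -0.043, and *Creb1* and *Srf* had log2 fold changes of -0.036 and -0.26 without a call. Of 8 partners and corepressors, none was called (edgeR; 4 had an unadjusted p of 0.05 or less, and DESeq2 called 2 higher and 1 lower). Among these, *Arnt2*, the dimer partner of NPAS4 in neurons, had a log2 fold change of 0.53 (edgeR, adjusted p = 0.0509), and *Nab2*, a corepressor of EGR proteins, had -0.36 (adjusted p = 0.0902).

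**Figure D5:**
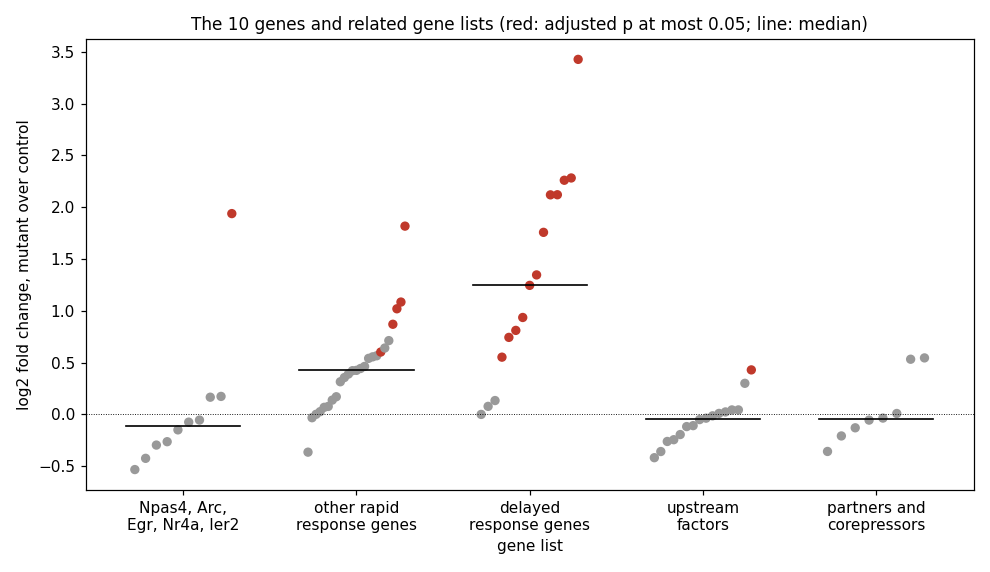
Log2 fold change, mutant over control (vertical axis), of the 10 genes and of the genes in 4 related lists, with a point for each gene, red where called at an adjusted p of 0.05 or less and grey otherwise, and a line for the median. The 10 genes centre on -0.11 and the 15 delayed response genes on 1.25.

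The genes with the profile most like that of *Npas4* over the 7 libraries were sought among 5795 genes with at least 100 normalised counts on average and an SD of at least 0.2 on the log2 scale. The nearest were *Adamts1*, a secreted metalloprotease, *Dusp4*, a phosphatase of MAP kinases, and *Slc2a4*, the insulin-regulated glucose transporter, at root mean square differences of 0.325, 0.330 and 0.372. Their log2 fold changes were 1.60, 1.82 and 1.33 (edgeR, adjusted p = 0.00704, 0.000440 and 0.0198). These genes were chosen for likeness to *Npas4* over the same libraries, and that profile includes its difference between genotypes. Their own differences therefore follow largely from the choice and are not separate evidence. None of the other 9 genes was as near to *Npas4*, the nearest being *Nr4a1* at 0.877 and the farthest *Nr4a2* at 1.29. For *Nr4a1* the nearest outside the 10 were *Irs2*, *Fos* and *Klf4*, at 0.165, 0.169 and 0.170, and *Ier2* was nearer, at 0.137. *Tob1*, *Wnk4* and *Perp* were nearest to *Egr1*, at 0.113, 0.132 and 0.135, and *Slc22a6*, *Kantr* and *Slc24a4* to *Arc*, at 0.196, 0.201 and 0.214.

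Markers of the cells in the dissected tissue were compared in the same fit. Among cortical excitatory neuron markers, *Rorb* was called lower (-0.47), a call that was lost on leaving out any library but control library 2, and the summed counts of the list were between 183820 and 236810 in controls and between 181520 and 209520 in mutants. Of 10 markers of striatal projection neurons, *Penk* (1.2) and *Tac1* (0.83) were called higher. Both calls were lost without mutant library 12 and without mutant library 13, and that of *Tac1* also without control library 2 or 10. The striatal sums were between 17397 and 26293 in controls and between 24139 and 35062 in mutants. Of 9 astrocyte markers, *Gfap* (1.95) and *Vim* (1.12) were called higher, and the sums, between 189370 and 281100 in controls and between 314420 and 367510 in mutants, did not overlap. Most of each astrocyte sum came from *Slc1a2*, which was not called (edgeR, adjusted p = 0.2). It had 229900 normalised counts in the highest control and 232600 in the lowest mutant. No endothelial marker of 8, microglial marker of 7, red cell marker of 5 or marker of thalamus and hypothalamus (7 of 10 tested) was called (edgeR; 4, 2, 0 and 1 of them had an unadjusted p of 0.05 or less, and DESeq2 called 2 endothelial markers higher). With libraries 10 to 13 only, and also with the covariate for library numbers, 4 endothelial markers were called higher and 5 red cell markers lower. The covariate also called 1 microglial marker lower. Endothelial sums were between 10116 and 12295 in controls and between 12364 and 14577 in mutants, microglial sums between 11023 and 11409 and between 9396 and 10824, and red cell sums between 11709 and 32103 and between 6337 and 18883. None of these markers was at 0 in every library. As for *Npas4*, the mutants lay above all controls in astrocyte and endothelial sums, the latter by little (12364 against 12295). They lay below all controls in microglial sums, and 19.7% of all tested genes separated in either direction. Striatal, excitatory and red cell sums overlapped over all libraries. Within the low library numbers and within the high ones, mutant striatal sums were above those of controls and red cell sums below them. For red cells these were 6337 against 11709 and 12382 (low), and 18883 and 16252 against 32103 and 31006 (high). The part of these markers in the difference of *Npas4* was not tested.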

How the data were processed

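RNA libraries of 7 forebrain pools were sequenced on an Illumina GAIIx (single reads, 36 bp). Per the submitters' processing notes and the study's methods, the authors trimmed reads with cutadapt 1.9.1, aligned them with Bowtie2 2.2.9 to GRCm38 transcripts of Ensembl release 84 and deposited RSEM 1.2.31 expected counts per gene, without normalization. RSEM splits an ambiguous read between the genes it fits. Of the 36-base words of the 10 genes, at most 0.418% (*Nr4a3*) also occur in another gene, and no exon of the 10 overlaps another gene. The authors also deposited a DESeq2 comparison of the genotypes (fold changes, standard errors and p-values), which was not used, and the exon annotation, which gave names, positions and lengths. Columns name only genotype and library number, so libraries were grouped by genotype, and 0 columns of per-sample values were left unused.

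Expected counts were rounded. Genes reaching 10 counts in 3 or more libraries were scaled by TMM and tested with edgeR 4.0.16 (quasi-likelihood F-test, R 4.3.3), with Benjamini-Hochberg adjustment over all 19684 genes and a threshold of 0.05. The standard error was taken as the size of the log2 fold change divided by the root of F, and 95% intervals use the t quantile at the total degrees of freedom of the gene. DESeq2 1.42.0 and limma-voom (limma 3.58.1), other scalings and filters, unrounded counts, a covariate for library numbers (2 to 5 against 10 to 13) and each library left out in turn were alternatives. Scripts were tested on simulated data. Each library was counted as a replicate. Libraries of a genotype differed by a chi-square per degree of freedom of 10.2 to 73.3. The lowest values were 10.8 for control libraries 10 and 11 and 10.2 for mutant libraries 12 and 13. All other pairs were at 38.7 or more, and these values do not show that libraries were independent. Replicates are pools of 2 mice. Profiles were compared by the root mean square difference of gene-centred log2 normalised counts (pseudocount 1). The named genes were the 10 genes, the called genes of each list (at most 6 by p), the 3 rapid response genes with the largest change, and the 3 nearest profiles of *Npas4*, *Arc*, *Egr1* and *Nr4a1*. *Fos*, *Junb*, *Creb1*, *Srf*, *Mapk3*, *Camk4*, *Arnt2*, *Nab2*, *Nrn1*, *Plk2* and *Homer1* were named after their values were seen. Members of the set and the lists were chosen with earlier results of these data known. Of the microglial markers, *Itgam*, with 2 gene identifiers, was left out. The result of 1 cortical marker is not reported here.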

Additional observations from a re-analysis of the deposited data

How the results depend on the processing

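*Npas4* was the only one of the 10 genes called higher under each of the 16 alternatives, with a log2 fold change of 1.48 to 2.18 and an adjusted p of 1.39e-08 to 0.0387. The number called lower, 0 in the report, was 1 with DESeq2 and 1 with the covariate for library numbers (*Nr4a2*), and from 0 to 1 when each library was left out (*Nr4a2* without control library 11, *Egr1* without mutant library 12). Estimates that were not called changed sign for *Arc* (0.17 without control library 10, 0.031 without mutant library 5 and 0.089 without mutant library 13), *Egr3* (0.020 without control library 2, 0.065 without control library 11 and 0.072 without mutant library 13), *Egr4* (0.017 with libraries 10 to 13 only and 0.048 without mutant library 13), *Nr4a1* (-0.14 without mutant library 12) and *Ier2* (-0.033 without mutant library 12), and the cause was not tested. Over all genes, calls went from 954 to 1731 with DESeq2, 2205 with the covariate, 1923 with libraries 10 to 13 only and between 302 and 969 when 1 library was left out. The scalings tried moved the median log2 fold change from -0.013 to 0.012 at most. The ratios of *Npas4* to the other genes kept their direction in all 72 alternative values, between 1.56 and 2.64. No paired analysis was possible because the columns carry library numbers, not the replicate numbers of the labels. With 4 and 3 libraries, the 95% intervals of the 9 genes not called still include fold changes from 0.468 to 1.62.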
